A study of Mus musculus with 16 samples.

Results

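The neurotrophins and their receptors were followed in mouse granulosa cells (mGCs), the somatic cells that surround and feed the oocyte in the ovarian follicle. The 7 genes are the ligands Bdnf, Ntf3 and Ntf5, the receptor kinases Ntrk2 and Ntrk3, the death-domain receptor Ngfr and the sorting receptor Sort1, taken by gene name out of the 57010 genes counted. They were chosen from the result that Bdnf was lower after 14, 15-EET, so the values of these 7 genes with and without 14, 15-EET are given as a description, with no test. Each gene was found once in both count tables (7 of 7).

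Neurotrophins are secreted as larger precursors that proteases cut to mature growth factors. Mature Bdnf and Ntf5 (neurotrophin 4/5) bind TrkB, the product of Ntrk2, and Ntf3 prefers TrkC, the product of Ntrk3. All of them bind p75, the product of Ngfr, and the uncut precursors bind p75 together with sortilin, the product of Sort1. In the ovary the family is known for roles in follicle assembly, oocyte maturation and innervation, and BDNF is released by granulosa and cumulus cells.

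Freshly isolated mGCs came from 5 mice of the Con group, which were operated on without a graft (sham), and 5 of the EM group, which carried endometrium from donor mice sutured to the mesentery of the intestine as a model of endometriosis. All were female ICR mice, 6 weeks old when bought, and ovulation was induced from day 30. The EM recipients also received 200 µg/kg of estradiol every other day over 14 days, and the methods do not say whether the sham-operated mice did, so graft and hormone cannot be told apart. In the second experiment mGCs of 6 EM mice were split and cultured in medium with 5% serum, with 100 nM 14, 15-EET, an epoxide of arachidonic acid, for 24 h (EET group, 3 libraries) or with PBS (PBS group, 3 libraries). The sources differ on whether another 24 h of culture came before the treatment. The methods call the cultured replicates paired but do not say which libraries are pairs or how the mice were combined. Poly(A) RNA was sequenced. Reads counted on genes lay between 14462398 and 15999234 per library in the Con group, 14229123 and 15072324 in EM, 21384686 and 27728777 in PBS, and 23823566 and 29482826 in EET.

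The label of the cells was checked against markers. The 11 granulosa markers summed to 11731 CPM (reads scaled by library size, with TMM factors over all 16 libraries) in the EM group, led by Inha, the inhibin alpha subunit. The fresh cells were not pure. Cyp17a1, the androgen-making enzyme of theca cells, stood at 180 CPM in the Con and 207 CPM in the EM group, and the 8 oocyte markers summed to 535 and 445 CPM. Other theca markers were low, Insl3 at 2.12 and 3.36 CPM and Gli1 at 5.55 and 2.43 CPM. Of the 7 theca markers 4 had positive and 3 negative log2 fold changes in EM against Con, with 0 called. Granulosa sums were 20070 CPM in EM replicate 2 and 5787 CPM in EM replicate 4, the highest and lowest of that group. Foxl2, the granulosa identity factor, was at 219 CPM in the fresh EM and 146 CPM in the cultured PBS cells, the FSH receptor gene Fshr at 103 and 5.16 CPM, and aromatase Cyp19a1 at 288 and 0.169 CPM.

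Levels between genes were compared per exon length, as CPM per kilobase of exon. In the Con group Sort1 was far above the others at 8.05 ± 0.949 (SD, n = 5). Ntf5 followed at 0.778, Ngfr at 0.482 and Ntrk2 at 0.324, then Bdnf at 0.0757, Ntrk3 at 0.0337 and Ntf3 at 0.0335. Sort1 was above all other members in every Con library, and so were the first 4 above the last 3, but the neighbours Ntf5 and Ngfr, Ngfr and Ntrk2, Bdnf and Ntrk3, and Ntrk3 and Ntf3 overlapped between libraries. When the longest transcript was taken as the length, Ntrk2 (0.587) passed Ngfr, and Ntf3 (0.0387) passed Ntrk3 (0.0377). In the cultured PBS cells the order was Sort1 (27.6), Ntf3 (16.6), Bdnf (8.59), Ntf5 (3.82), Ntrk3 (0.435), Ngfr (0.0311) and Ntrk2, which had no read, and no neighbours overlapped. The ligands therefore stood above both Trk receptors in culture.

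**Figure D1:**
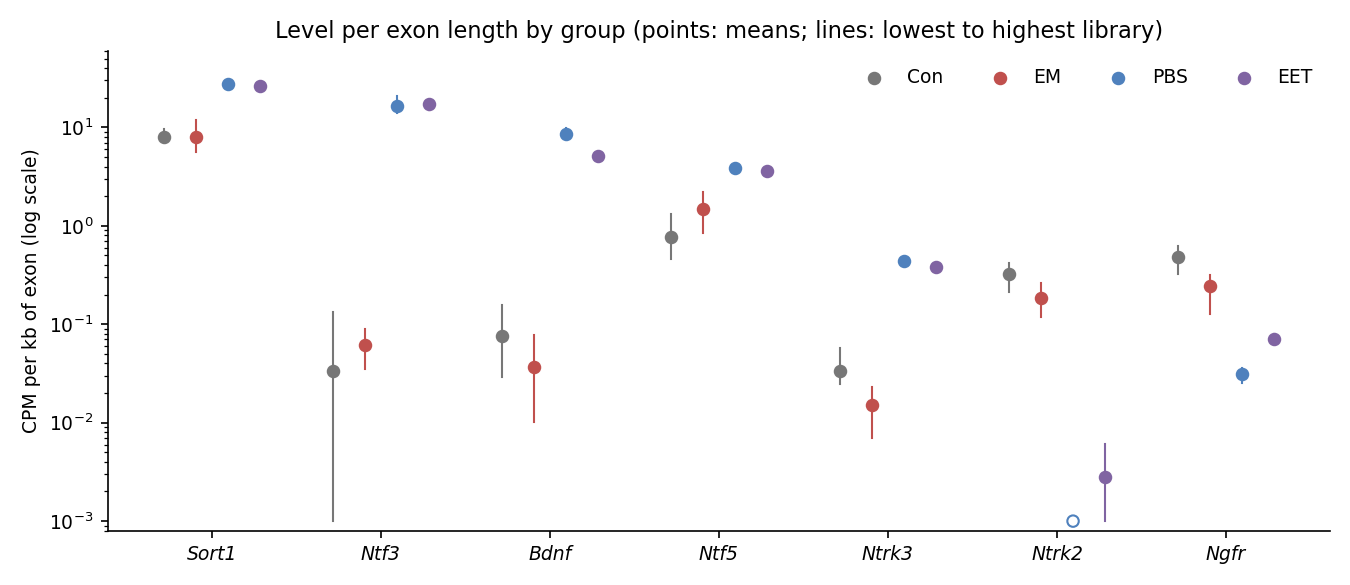
Level per exon length (CPM per kilobase of exon, log axis) of the 7 genes in the Con, EM, PBS and EET groups. Points are means and lines run from the lowest to the highest library, a line that ends at the floor of the axis includes a library with no read, and open circles are groups with none at all. Bdnf stood at 0.0368 in fresh EM cells and 8.59 in cultured PBS cells, and Ntrk2 at 0.186 in EM with no read in PBS.

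Bdnf (ENSMUSG00000048482, chr2:109505045-109557352, plus strand) and Ntf3 (ENSMUSG00000049107, chr6:126078375-126143873, minus strand) are positioned as deposited, on GRCm39 by the submitters' processing notes. Both ligands were close to 0 in fresh cells and abundant in culture, so the sequence before their starts is shown, from RefSeq on the older build GRCm38.p6, whose coordinates differ from those above. Bdnf has 7 RefSeq start windows and Ntf3 has 2, and the first of each gene is printed with the Bdnf window 3, the 100 bases before the start, 5′ to 3′. Capitals mark the core of the cAMP response element, the site of CREB-family factors. The windows lie at chr2:109674600-109674699 and chr2:109692336-109692435 on the plus strand and at chr6:126166745-126166844 on the minus strand.
Bdnf window 1: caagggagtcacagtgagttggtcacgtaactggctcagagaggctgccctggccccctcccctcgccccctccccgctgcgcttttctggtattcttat
Bdnf window 3: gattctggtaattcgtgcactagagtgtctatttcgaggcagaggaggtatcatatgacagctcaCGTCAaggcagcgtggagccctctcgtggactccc
Ntf3 window 1: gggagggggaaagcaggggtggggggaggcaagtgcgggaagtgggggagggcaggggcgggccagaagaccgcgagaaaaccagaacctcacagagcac

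The motifs searched on both strands in the 250 bases before each start were the full cAMP response element TGACGTCA, its core TGACG, which is part of the full element, and the AP-1 site TGAGTCA. The full element was in 508 of 32851 RefSeq windows (1.55%), the core in 5836 (17.8%) and the AP-1 site in 1466 (4.46%). The core was in 1 of the 7 Bdnf windows, window 3, where it lies on the other strand from 35 bases before the start. No Bdnf window held the full element or the AP-1 site, and neither Ntf3 window, nor the single windows of Ntrk2 and Ngfr, held any of the 3. These matches describe the letters only. For the other 3 members no window was matched.

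Whether endometriosis in the mouse moved these genes was asked in the fresh cells. In bulk RNA, fewer cells of a type and less RNA per cell cannot be told apart. edgeR called 0 of 17229 genes between EM and Con (0%), with a smallest adjusted p of 0.207, and none of the 4 members it could test was called. At an unadjusted p under 0.05 stood 3 of these 4 members, beside 9.44% of all genes (1626), and DESeq2 called 110 genes, none of these 4 among them. Bdnf, Ntf3 and Ntrk3 had too few reads for the test.

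Among the ligands Bdnf was barely detected. The Con libraries held 6, 5, 17, 3 and 10 Bdnf reads (0.364, 0.281, 0.981, 0.180 and 0.547 CPM) and the EM libraries 1, 8, 2, 1 and 6 (0.0645, 0.484, 0.153, 0.0625 and 0.380 CPM). The groups overlapped, and a two-sided exact permutation test of log2 CPM gave p = 0.135. Ntf3, the ligand of TrkC, had 0, 1, 4, 0 and 0 reads in Con and 2, 1, 2, 2 and 1 in EM, too few to compare. Ntf5 (ENSMUSG00000074121, chr7:45063119-45066603, plus strand) had the highest mean per length of the 3 ligands in both fresh groups. Its 5 Con libraries lay at 0.910, 2.58, 1.73, 1.26 and 1.15 CPM and its EM libraries at 2.26, 2.48, 3.82, 4.31 and 1.65 CPM. The EM values were on average higher but the groups overlapped, with a log2 fold change of 0.91 (SE 0.35, adjusted p = 0.498 by edgeR, exact permutation p = 0.0556).

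Ngfr, Ntrk3 and Ntrk2 had lower mean CPM in the EM group, without passing the adjusted test. Ngfr (ENSMUSG00000000120, chr11:95459644-95478561, minus strand), which encodes p75, measured 1.76, 1.12, 1.85, 1.44 and 2.13 CPM in Con and 1.03, 1.09, 0.688, 0.437 and 1.01 CPM in EM. Every EM library was below every Con library, as it was for 0.743% of all genes tested (128 of 17229). The log2 fold change was -0.96 (SE 0.31), with an unadjusted p of 0.00915 and an adjusted p of 0.443 by edgeR, and the exact permutation test gave 0.00794, the smallest p that 5 against 5 allows. The whole group difference rests on 144 reads in Con and 66 in EM.

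Ntrk3 (ENSMUSG00000059146, chr7:77825707-78387760, minus strand), the TrkC gene, measured 0.546, 0.561, 0.635, 1.26 and 0.711 CPM in Con and 0.258, 0.484, 0.153, 0.250 and 0.507 CPM in EM. These groups did not overlap either, though they hold only 64 and 26 reads. The exact permutation p of 0.00794, the smallest that 5 against 5 allows, restates that. Ntrk3 was not among the 17229 genes tested, so the share of 0.743% does not cover it. For genes with so few reads no share was computed. Without its expression filter edgeR gave a log2 fold change of -1.13 (SE 0.50, adjusted p = 0.648). Ntrk2 (ENSMUSG00000055254, chr13:58954383-59281784, plus strand), the TrkB gene, measured 6.68, 3.37, 5.42, 5.04 and 5.14 CPM in Con and 4.19, 1.88, 3.44, 2.31 and 2.92 CPM in EM. The lowest Con library fell within the EM range, and the log2 fold change was -0.81 (SE 0.26, adjusted p = 0.437 by edgeR, exact permutation p = 0.0238). Ntrk3 overlaps Gm9885 on the opposite strand, which had at most 14 reads in a library. Counts per gene do not separate the kinase forms of TrkB and TrkC from the truncated ones. The permutation p-values are unadjusted, over 13 genes.

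Sort1 (ENSMUSG00000068747, chr3:108191398-108268827, plus strand) measured 53.2, 57.2, 48.7, 65.9 and 52.6 CPM in Con and 49.5, 82.4, 51.7, 38.6 and 55.6 CPM in EM. The EM libraries spanned the Con range on both sides, and the log2 fold change was -0.01 (95% interval -0.35 to 0.33).

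**Figure D2:**
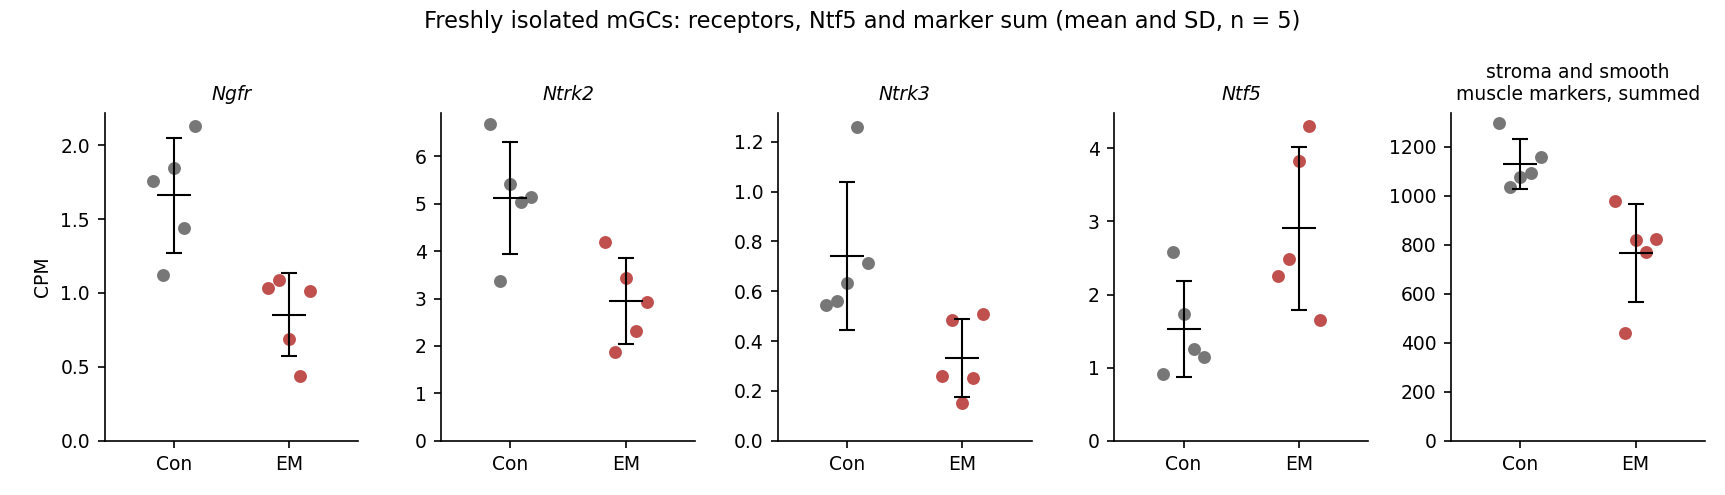
CPM of Ngfr, Ntrk2, Ntrk3 and Ntf5, and the summed CPM of 8 stromal and smooth muscle markers, in the 5 Con and 5 EM libraries. Points are libraries, and the bars give the mean and SD. Ngfr and Ntrk3 do not overlap between the groups, and the marker sum does not either (1034.7 to 1294.6 CPM in Con, 438.6 to 979 CPM in EM).

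Markers of other cell types also differed in level between these groups, with none called. The 8 stromal and smooth muscle markers summed to 1131 ± 102 CPM in Con and 766 ± 199 CPM in EM, led by Col1a2, and 6 of the 8 had negative log2 fold changes (median -0.40, against -0.01 over all genes). All 6 endothelial markers were negative (median -0.46), with sums of 159 ± 11.1 and 120 ± 26.6 CPM, led by Kdr. The 8 leukocyte markers summed to 97.8 ± 33.3 CPM in Con and 167 ± 55.4 CPM in EM, and the 7 tested were all positive. Csf1r was the most abundant and hardly differed (41.6 and 44.1 CPM), while the neutrophil genes S100a8 (1.73 and 18.7 CPM) and S100a9 (5.74 and 43.4 CPM) made up most of the difference. The 10 neuron and glia markers summed to 72.5 and 73.7 CPM. Mitochondrial genes took 6.76% to 11.1% of counts in Con and 8.09% to 21.8% in EM, highest in EM replicate 3. The part of these in the receptor values was not tested.

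The genes whose log2 CPM was most like that of Ngfr over the 10 fresh libraries, among 12943 genes, were Myh11 (r = 0.94, rho = 0.93), the smooth muscle myosin heavy chain, Zfp385b (r = 0.91, rho = 0.85) and Mylk4 (r = 0.90, rho = 0.87), a myosin light chain kinase. The libraries share the group difference, so this is a description. Myh11 averaged 39.2 CPM in Con and 20.2 CPM in EM, Zfp385b 65.9 and 47.5 CPM, and Mylk4 7.04 and 3.80 CPM. Bdnf was too low for such a list.

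Of the other genes of the pathway, 79 were listed and 71 tested in EM against Con, and none was called. At an unadjusted p under 0.05 were 6 of the 71, beside 9.44% of all genes. Mmp9, a protease that can cut proBDNF outside the cell, had the smallest p of these and was picked out after its values were seen. It measured 1.15, 2.58, 4.62, 1.62 and 1.48 CPM in Con and 6.83, 4.96, 7.50, 10.7 and 11.8 CPM in EM, with a log2 fold change of 1.86 (SE 0.38, unadjusted p = 0.000335, adjusted p = 0.297 by edgeR). Every EM library was above every Con library, as for 0.993% of all genes. Mmp9 is also a neutrophil granule gene, and the neutrophil genes S100a8 and S100a9 given above were likewise higher on average in EM, and their part in this value was not tested. Of the sortilin relatives, the abundant Sorl1 was at 41.0 ± 5.29 CPM in Con and 36.4 ± 3.34 CPM in EM (adjusted p = 0.621 by edgeR) and Sorcs1 at 19.9 ± 5.97 and 13.7 ± 7.46 CPM (adjusted p = 0.641). Sorcs2, picked out after its values were seen as the one of them with an unadjusted p under 0.05, was at 7.98 ± 0.755 CPM in Con and 5.93 ± 1.42 CPM in EM (adjusted p = 0.510 by edgeR). The abundant processing enzyme Cpe, which trims cut precursors and binds proBDNF, was at 941 ± 82.5 and 857 ± 90.8 CPM. Gab2, an adaptor downstream of Trk receptors, was at 218 ± 35.7 and 168 ± 52.8 CPM, and Ptpn11, the SHP2 phosphatase, at 147 ± 6.14 and 154 ± 15.0 CPM.

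Fresh EM cells and cultured PBS cells were compared next. These groups come from different mice and experiments, so culture and experiment cannot be told apart. The EM libraries were also used against Con, and the PBS libraries are also the control for EET. edgeR called 11937 of 17301 genes (69.0%), 5381 higher in PBS (31.1%) and 6556 lower (37.9%), and the median log2 fold change of all genes was -0.11. Bdnf, Ntf3, Ntrk3, Ntrk2 and Ngfr had so few reads in one of the groups that they passed the filter through the other alone and had to differ, so their values are given with no p. Ntf5 and Sort1 were well counted in both groups, and both were called higher.

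The ligands Bdnf and Ntf3 went from near 0 to moderate levels. Bdnf had 1, 8, 2, 1 and 6 reads in the EM libraries, and 878, 1381 and 1246 reads, or 47.9, 60.6 and 51.8 CPM, in the PBS libraries. The pooled counts differed 230-fold (95% interval 145 to 388, counting error only), and the log2 fold change was 7.78 (SE 0.35). Ntf3 had at most 2 reads in any EM library and 647, 548 and 626 reads (35.3, 24.0 and 26.0 CPM) in PBS, a 268-fold difference (136 to 623) and a log2 fold change of 7.98 (SE 0.27). Ntf5 rose less, to 7.36, 7.33 and 7.82 CPM (log2 fold change 1.34, SE 0.30, adjusted p = 0.00253), and all 3 PBS libraries were above the highest EM library, as for 32.2% of all genes.

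**Figure D3:**
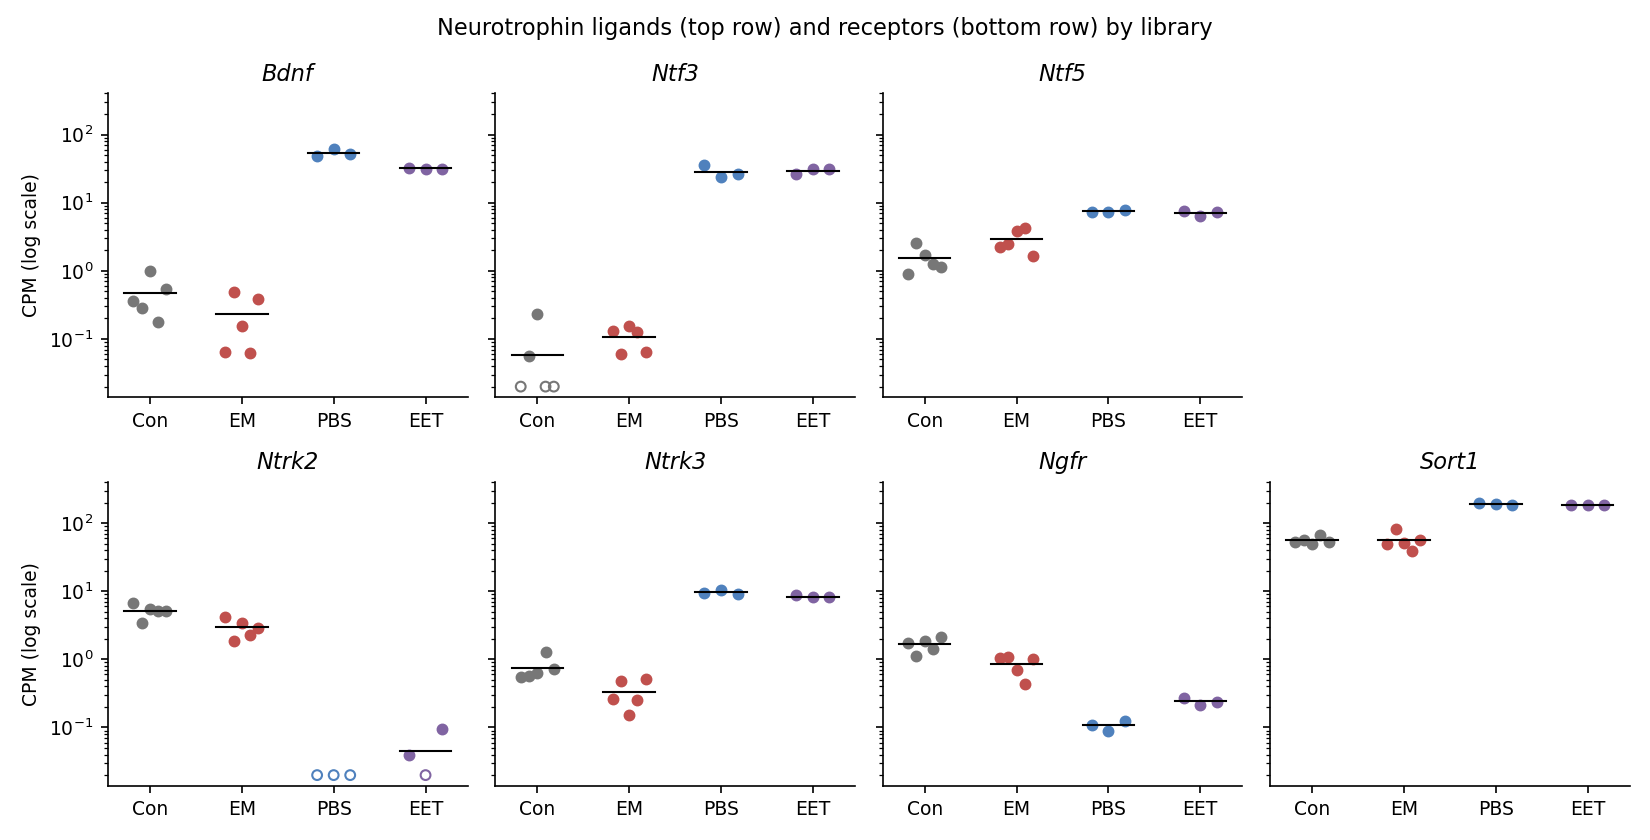
CPM (log axis) of the 3 ligands Bdnf, Ntf3 and Ntf5, above, and of Ntrk2, Ntrk3, Ngfr and Sort1, below, in each library of the Con, EM, PBS and EET groups. Points are libraries, horizontal lines are means and open circles at the floor are libraries with no read. Bdnf, Ntf3, Ntf5, Ntrk3 and Sort1 were highest in the cultured groups, while Ntrk2 had 0 reads in all 3 PBS libraries.

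The Trk receptors split. Ntrk3 measured 9.32, 10.3 and 9.15 CPM in PBS against 0.153 to 0.507 CPM in EM, 28.4-fold higher on pooled counts (19.2 to 43.7, counting error only), with a log2 fold change of 4.79 (SE 0.30). Ntrk2 had 65, 31, 45, 37 and 46 reads in EM and 0 in each PBS library, at least 63.3-fold lower when set against a floor of 3 reads over the group. Ngfr had 16, 18, 9, 7 and 16 reads in EM and 2, 2 and 3 in PBS, 7.99-fold lower (3.67 to 20.7, counting error only), with a log2 fold change of -2.93 (SE 0.48). Sort1 measured 195, 192 and 185 CPM in PBS, above the highest EM library as for the same 32.2% of genes, with a log2 fold change of 1.76 (SE 0.19, adjusted p = 2.9e-05). The cultured cells thus held reads of ligands for TrkB while Ntrk2 reads were at 0.

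Of the sortilin relatives, Sorcs1 and Sorl1 were called lower. Sorcs1 fell from 13.7 ± 7.46 to 0.832 ± 0.0411 CPM, Sorl1 from 36.4 ± 3.34 to 6.42 ± 0.475 CPM and Sorcs2 from 5.93 ± 1.42 to 0.925 ± 0.253 CPM. Sorcs3 had 0 reads in PBS, at least 15.8-fold lower, and passed the filter through EM alone, so its call was fixed and is not counted. Sorcs2, with 22, 16 and 21 reads in PBS, also passed the filter through EM alone, so its call is not counted either. Sort1 was the sole member of the sortilin family with a higher mean in PBS.

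Of the genes that process pro-neurotrophins, 2 of 8 tested were higher and 4 lower, Mmp9 and Pcsk2 among the 4. Furin, a protease that cuts precursors in the secretory pathway, rose from 92.0 ± 10.4 to 299 ± 17.4 CPM (log2 fold change 1.67, SE 0.12). The related Pcsk6 fell from 38.3 ± 9.61 to 5.91 ± 1.42 CPM, while Mmp9, which also passed the filter through EM alone, was at 8.37 ± 2.83 CPM in EM and 0.0830 ± 0.0698 CPM in PBS (its Con level was 2.29 ± 1.40 CPM). Among Trk adaptors and effectors 12 of 21 were higher and 2 lower, such as Irs2 (19.8 ± 8.22 to 132 ± 11.8 CPM) and Frs2 (79.8 ± 13.6 to 247 ± 6.70 CPM), against Gab2, which fell from 168 to 59.4 CPM. Of the genes of p75 shedding and signalling, 10 of 21 were higher and 2 lower, Rtn4r among the 2. Bex3, a p75 partner, rose from 156 ± 29.8 to 603 ± 46.9 CPM and Ripk2 from 17.1 to 53.6 CPM, while Tnfrsf19 fell from 8.58 ± 2.98 to 1.08 ± 0.239 CPM. The regulators of Bdnf transcription were split, 6 of 16 higher and 5 lower, with Creb1 falling from 59.3 ± 3.48 to 39.5 ± 2.27 CPM and Mef2d rising from 98.4 ± 7.73 to 235 ± 8.64 CPM. The genes named with a rise or fall here had an adjusted p under 0.05 by edgeR. Pcsk2 (0.646 CPM in EM and 0.167 CPM in PBS) and Rtn4r (1.09 and 0.192 CPM) also passed the filter through EM alone. The calls of Mmp9, Pcsk2 and Rtn4r were fixed by the filter and support nothing. Taking the 72 tested genes of these lists together, 49 were called (68.1%), close to the 69.0% of all genes. The 49 include genes whose calls the filter fixed.

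**Figure D4:**
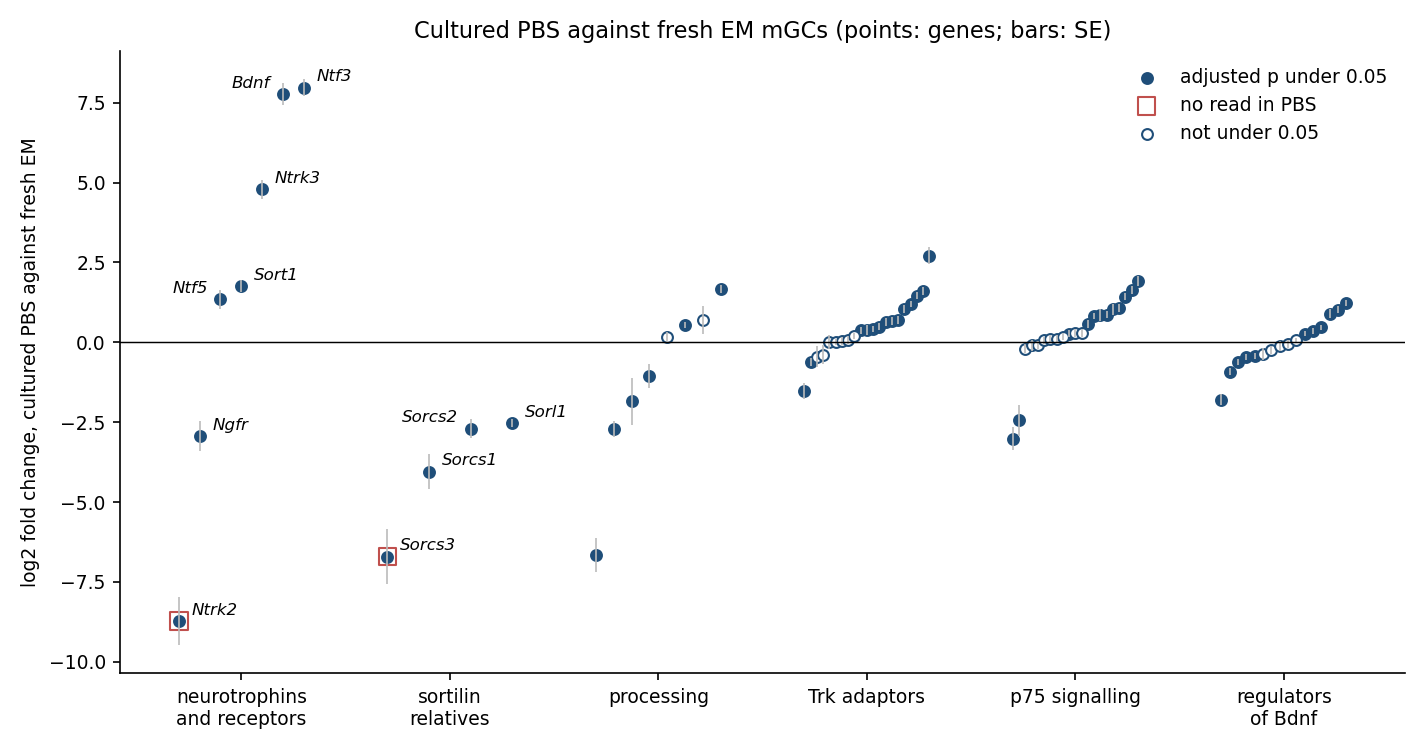
The log2 fold change of each gene (points, with SE bars) in cultured PBS against fresh EM mGCs, by list. Filled points had an adjusted p under 0.05 by edgeR, open points did not, and squares mark Ntrk2 and Sorcs3, which had no read in PBS, so that their plotted value depends on the fit's prior and only the bound in the text is used. For Bdnf, Ntf3, Ntrk3, Ntrk2, Ngfr, Sorcs2, Sorcs3, Mmp9, Pcsk2 and Rtn4r, which passed the filter through 1 group alone, the filter fixed that outcome. Bdnf (7.78) and Ntf3 (7.98) stand above every other gene plotted.

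Most markers of other cells fell at the same time. The 8 oocyte markers went from 445 to 1.62 CPM summed, the 6 endothelial markers from 120 to 4.68 CPM, and the 8 leukocyte markers from 167 to 11.9 CPM, with S100a8, S100a9 and Ly6g at 0 reads. Of the 11 granulosa markers 10 fell (11731 to 6786 CPM summed). The stromal and smooth muscle list fell in 6 genes and rose in Acta2, from 131 to 624 CPM. The surface epithelium list fell in 5 genes and rose in the keratin Krt18, from 16.4 to 96.2 CPM, with sums of 112 and 99.9 CPM. In the theca list 4 of 7 genes were called lower and 3 were not called. Among neuron and glia markers 6 fell and Tubb3, a neuronal tubulin, rose from 21.8 to 129 CPM, while Sox10 and Th were at 0 reads. Several of these markers were near 0 in PBS and passed the filter through EM alone, so their calls were fixed. Examples are Amh (52.1 CPM in EM, 0.302 CPM in PBS), Cyp19a1 and Elavl3 (1.78 and 0.121 CPM). The counts of markers that fell are therefore a description, beside 37.9% of all genes called lower. The part of these marker changes in the ligand and receptor values was not tested.

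Last come the values with and without 14, 15-EET, where the genes were chosen. edgeR called 184 of 15050 genes (1.22%). Bdnf is 1 of them by the choice of the genes, and nothing is read from it. Bdnf measured 47.9, 60.6 and 51.8 CPM with PBS (53.4 ± 6.51, n = 3) and 32.1, 31.6 and 31.7 CPM with 14, 15-EET (31.8 ± 0.257, n = 3). All EET libraries were below all PBS libraries, as for 9.23% of all genes, with a log2 fold change of -0.75 (SE 0.08), that is 1.68-fold lower.

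The other ligands stayed near their PBS values. Ntf3 measured 35.3, 24.0 and 26.0 CPM with PBS and 25.9, 31.1 and 31.7 CPM with EET (log2 fold change 0.07, SE 0.13), and the groups overlapped. Ntf5 was at 7.36, 7.33 and 7.82 against 7.62, 6.32 and 7.23 CPM (log2 fold change -0.08, SE 0.12), also overlapping.

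Of the receptors, Ntrk3 measured 9.32, 10.3 and 9.15 CPM with PBS and 8.72, 8.14 and 8.14 CPM with EET (log2 fold change -0.19, SE 0.10), and Sort1 195, 192 and 185 against 181, 184 and 183 CPM (log2 fold change -0.06, SE 0.05). Both were lower in each EET library than in any PBS library, as for 9.23% of all genes. Ngfr had 2, 2 and 3 reads with PBS and 7, 5 and 5 with EET, and Ntrk2 0, 0 and 0 against 1, 0 and 2, both too few for the test. Per exon length the order of the members in EET was that in PBS, with Bdnf at 5.11 and Ntf5 at 3.60.

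**Figure D5:**
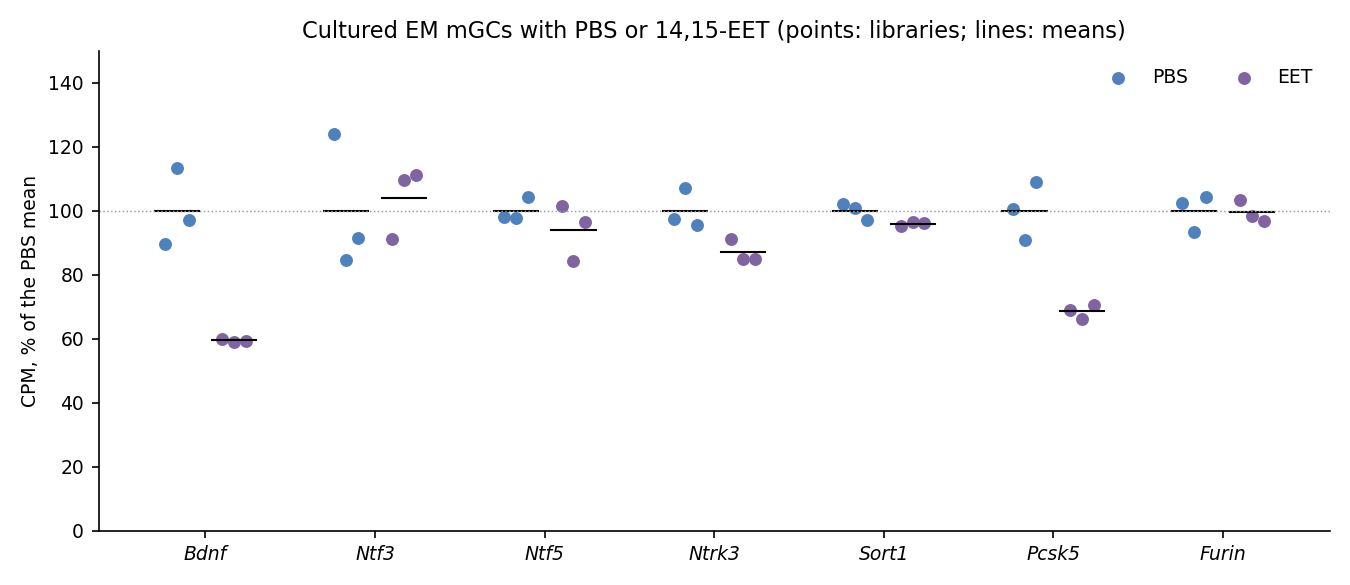
CPM of Bdnf, Ntf3, Ntf5, Ntrk3, Sort1, Pcsk5 and Furin in the cultured libraries, as a percentage of each gene's PBS mean. Points are the 3 PBS and 3 EET libraries and lines are means. The EET libraries of Bdnf (32.1, 31.6 and 31.7 CPM) and of Pcsk5 (105, 100 and 107 CPM) lie below 100%, and so do those of Ntrk3 (8.72, 8.14 and 8.14 CPM) and Sort1 (181, 184 and 183 CPM).

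Among the other 68 tested pathway genes, 1 was called (1.47%, beside 1.22% of all genes). This was Pcsk5, a proprotein convertase, at 153, 138 and 166 CPM with PBS and 105, 100 and 107 CPM with EET (log2 fold change -0.54, SE 0.06, adjusted p = 0.00167 by edgeR). Its EET libraries were all below its PBS libraries, as for 9.23% of all genes. The list was written with earlier results of these data known. Furin, Ptpn11 (429 ± 3.25 and 448 ± 9.71 CPM), Bex3 (603 ± 46.9 and 534 ± 37.3 CPM) and the Bdnf regulator Mef2d (235 ± 8.64 and 228 ± 3.85 CPM) were not called. Markers of other cells were also called in the same contrast, Tubb3 (141, 123 and 122 CPM with PBS, 105, 95.6 and 93.8 CPM with EET) and the epithelial keratin Krt18 (96.2 and 78.2 CPM on average), besides Inha. Each was the single gene called in its list, of 3, 4 and 9 tested, and the other keratins tested, Krt7 (0.604 and 0.743 CPM) and Krt19 (0.589 and 0.798 CPM), were higher on average with EET and not called. Their part in the Bdnf value was not tested.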

How the data were processed

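RNA-seq was measured in 16 libraries of mouse granulosa cells in 4 groups. The authors deposited 2 tables of raw read counts per Ensembl gene, with 1 column for each library (0 columns unused). The submitters' processing notes name fastp, HISAT2, StringTie and GRCm39. The treatment of reads shared by overlapping genes is not given in the sources used here. Replicates of a group differed by more than sampling noise, but p-values measure only the spread between these samples. The members, lists and tests were chosen with earlier results of these data known. Intervals on counts and floors cover counting error only.

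With R 4.3.3 and edgeR 4.0.16, genes passing filterByExpr were compared by the quasi-likelihood test with TMM normalization and Benjamini-Hochberg adjustment over all genes tested, called at an adjusted p under 0.05, each contrast in its own fit. SE is the log2 fold change over the square root of F. CPM used TMM factors over all 16 libraries, and length was the union of exons in GENCODE vM21 basic (GRCm38), matched for 52029 of 57010 genes. Single values were compared by two-sided exact permutation tests. Named pathway genes were up to 6 called genes per list by absolute log2 fold change, otherwise the 2 most abundant. Fits were tested on simulated data. Alternatives were DESeq2 1.42.0, RLE normalization, no expression filter, the replicate block and leaving out each library. Promoter sequences are from RefSeq, and proteins were not used here. Some listed genes are not reported here.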

Additional observations from a re-analysis of the deposited data

Results flagged for a closer look

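In 22 groups of 5 fresh libraries, 1 library lay far from the other 4 in 3 cases, where chance alone gives about 1 in 20. Ntf3 was at 0.231 CPM in Con replicate 3, which is 4 reads. Ntrk3 was at 1.26 CPM in Con replicate 4, the highest of its group. Sorl1 was at 30.4 CPM in EM replicate 5, the lowest of its group. These are values and no explanation was tested.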

How the results depend on the processing

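For the members tested in EM against Con, and for Ntf5 and Sort1 in PBS against EM, 73 values under the alternatives kept their direction and their side of the threshold. The 57 values of the other members in PBS against EM were fixed by the filter and say nothing about stability. In EET against PBS, where members have no test, 49 values kept their direction and stayed within the spread of the libraries. The exceptions were values close to 0. Sort1 in EM against Con turned from -0.01 to 0.00015 with DESeq2 and to 0.0067 without the expression filter, and ranged from -0.19 to 0.10 when single libraries were left out. Ntf3 in EET against PBS ranged from -0.035 (without PBS replicate 2) to 0.24. Bdnf in EET against PBS ranged from -0.82 to -0.64. For Ngfr in EM against Con the range was -1.07 to -0.79, for Ntrk2 -0.97 to -0.68 and for Ntf5 0.72 to 1.19, and none was called in any fit.

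Counts of called genes moved more. EM against Con gave 110 genes with DESeq2 (67 higher, 43 lower), 4 without the filter, and 0 to 46 when single libraries were left out, 46 of them without Con replicate 3 and 1 without EM replicate 1. EET against PBS gave 322 with DESeq2, 662 without the filter, and 48 (without EET replicate 3) to 436 (without PBS replicate 2), with 350 without PBS replicate 1, 122 without EET replicate 1 and 61 without EET replicate 2. PBS against EM gave 10792 to 14355. The causes were not tested. In PBS against EM, Ngfr passed the filter in 5 of 8 fits that left out a library. With the replicate number as a block, EM against Con called 2 genes, EET against PBS 341 and PBS against EM 10806. Deviations of equally numbered PBS and EET libraries correlated at 0.0622, 0.101 and -0.0245. PBS replicates 1 and 2 correlated best with the EET library of their own number, but PBS replicate 3 with EET replicate 1. The libraries therefore do not show that equal numbers mark the pairs that the methods speak of. Under the block no member tested in EM against Con, nor Ntf5 or Sort1 in PBS against EM, changed its call. At fewer than 20 reads a library, as for Bdnf, Ntf3 and Ntrk3 in most fresh cells, depth limits every comparison. The same holds for Ngfr in the EM group, with 7 to 18 reads a library.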
